A study of Drosophila melanogaster with 30 samples.

Results

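The glutathione S-transferase (GST) gene family was followed in the midgut of the fruit fly Drosophila melanogaster across 5 conditions in 2 gut regions. A gene was a member if its name in the deposited tables began with Gst followed by the class letter D, E, S, T, O or Z, which gave 35 of the 17488 genes: 11 of class Delta (D), 14 Epsilon (E), 1 Sigma (S), 4 Theta (T), 3 Omega (O) and 2 Zeta (Z). The rule reads gene names alone. RNA came from the posterior (subregions p1-4) or the anterior (a1-3) midgut of mated females aged 10 to 12 days, with 30 to 50 dissected regions pooled in each sample. Flies of the strain y[1]w[1] were reared as adults on a lipid-depleted diet, on a high-cholesterol diet holding 0.2% cholesterol (labelled 4x cholesterol), or on the control diet. The strains Hr96[2x] and TI{TI}Hr96[1], named for the nuclear receptor gene Hr96, were kept on the control diet. Each of the 10 groups had 3 libraries, 30 in all. Separate cultures are not stated for replicates, and p-values therefore cover no more than the scatter among these samples, part of which may be technical. The sources used here do not say how the 2 Hr96 strains were made or whether they share the background of y[1]w[1], so an effect of Hr96 and of other differences between the stocks cannot be told apart.

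GSTs are enzymes that join the tripeptide glutathione to reactive or foreign molecules, which makes these more soluble and lets ABC transporters of class C carry them out of the cell. Some also reduce peroxides with glutathione. The Delta and Epsilon classes belong to insects and other arthropods, lie mostly in gene clusters made by tandem duplication, and are known for their part in resistance to insecticides, while Sigma, Theta, Omega and Zeta enzymes are also found in vertebrates. The gut is a main site of detoxification in flies, and Hr96 is known as a receptor that acts in responses to foreign compounds and in the handling of cholesterol and fat.

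All 11 Delta genes lay within 20849 bases of chromosome 3R (dm6, 3R:12364776-12385624), and 10 of the 14 Epsilon genes within 13198 bases of 2R (2R:18396638-18409835). Most cluster genes had a single exon. GstE11, GstE12, GstE13, GstE14 and GstS1 stood apart on 2R, and GstT1 and GstT2 were neighbours of each other elsewhere on 2R. GstO1, GstO2 and GstO3 were neighbours on 3L, GstZ1 and GstZ2 on 3R, and GstT3 and GstT4 lay apart on X. Cluster genes are close copies of one another, and the sources used here do not say how reads matching several copies were assigned, so a single cluster gene's value is less certain than that of a gene standing alone. The library kit does not mark strand, so reads of GstE1 and GstE10 cannot be told apart where these genes overlap on opposite strands, nor those of GstE9 and imd, GstE12 and CG3894, GstE13 and CG18659, GstT2 and CG12926, or GstO2 and se.

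Values are FPKM (fragments per length of gene model and per size of library) divided by a scaling factor per library, here called scaled FPKM, and log2 changes are on the log2(scaled FPKM + 1) scale, which understates the change of weakly expressed genes. Limma tested the 8335 genes whose mean scaled FPKM reached 1, and a change was called where its p, adjusted by Benjamini and Hochberg over them all, lay under 0.05. Of the 35 members 30 were tested. The other 5, GstD11, GstE2, GstE4, GstE14 and GstZ2, fell below that mean. Exact permutation of 3 libraries against 3 cannot give a p below 0.1, so single genes have no such test.

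Without read counts in the files depth is unknown; between 9923 and 13355 genes were above 0 per library. Hr96 itself averaged 72.5 ± 8.29 scaled FPKM in posterior Hr96[2x] and 33.1 ± 5.12 in posterior Hr96[1], against 62.0 ± 3.81 in posterior control (SD, n = 3 each). Its anterior level was 75.3 ± 5.41 in Hr96[2x] and 38.7 ± 4.31 in Hr96[1], against 57.5 ± 12.7 in control. The 2 enterocyte markers matched, Myo31DF and nub, summed to between 158 and 240.0 in every library. Myo31DF was called lower in posterior Hr96[1] than in control, and higher in Hr96[2x] than in Hr96[1] in both regions. On high cholesterol nub was called higher in the posterior than in the anterior midgut. Several libraries stood apart. Anterior lipid-depleted replicate 1 was the highest of its group for 29 of the 30 tested members and for 48.4% of all tested genes. Posterior lipid-depleted replicate 1 was the highest for 23 members (all tested genes, 42.9%) and posterior Hr96[2x] replicate 2 for 21 (34.9%). Posterior Hr96[1] replicate 2 was the lowest for 20 members. It was the highest for 1 member and for 20.7% of all tested genes. Fat body markers summed to 1912, 107 and 163 in posterior and 1626, 208 and 169 in anterior control replicates 1 to 3. The yolk protein genes Yp1, Yp2 and Yp3 (246, 693 and 933) made up most of the first of these sums. Ovary markers summed to 9.58, 0.766 and 1.24 in posterior and 16.4, 0.655 and 2.07 in anterior control. On high cholesterol the ovary sums were 2.24, 1.53 and 16.8 in posterior and 2.19, 14.3 and 108 in anterior replicates 1 to 3. Hr96[1] replicate 1 was the highest of its groups in markers of Malpighian tubule (375, 65.2 and 85.6 in posterior and 388, 59.5 and 71.4 in anterior replicates 1 to 3) and of ovary (71.3, 4.19 and 10.5, and 123, 0.220 and 0.511). In 8 of the 10 groups replicates 2 and 3 resembled each other more than either did replicate 1. In bulk RNA, fewer cells of a type and less RNA per cell cannot be told apart.

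GstD1, an enzyme known for its action on the insecticide DDT and as a readout of the Nrf2-type factor cnc, was the most abundant member in the wild-type groups. It stood at 1284, 1021 and 1206 scaled FPKM in posterior and 2374, 2394 and 2930.0 in anterior control replicates 1 to 3. GstE6, GstE12 and GstE3 led the Epsilon class in the control groups, with 283 ± 70.2, 399 ± 93.5 and 169 ± 34.5 in posterior and 441 ± 29.6, 295 ± 34.9 and 266 ± 52.1 in anterior control (SD, n = 3 each). GstO3 and GstO2 stood at 222 ± 31.1 and 200.2 ± 6.71 in posterior and 289 ± 56.8 and 310.4 ± 50.7 in anterior control, and the order of these 2 genes lay within their spread in both regions. GstT4 led the Theta class in the anterior midgut (205 ± 44.8 in control), while in posterior control GstT4, GstT3 and GstT1 (78.9 ± 51.7, 56.3 ± 25.5 and 53.9 ± 3.73) were not separated by their spread. GstZ1 reached 11.3 ± 1.43 in posterior and 12.5 ± 1.66 in anterior control. Over all 30 libraries GstE9 ran from 18.6 to 670.5 and GstE8 from 4.95 to 232, while GstD4 (1.30 to 65.4), GstD7 (0.930 to 44.6), GstD6 (0.152 to 19.8), GstE10 (0.0549 to 38.1), GstE13 (7.46 to 31.0) and GstO1 (2.55 to 11.0) were lower. The Theta genes GstT1 (37.6 to 73.6) and GstT2 (13.4 to 34.8) kept a narrow range and had no call in any comparison. GstE2, GstE4 and GstZ2 did not exceed 1.42, 2.38 and 2.45. At the low end, GstE14, known as noppera-bo for its part in ecdysone synthesis in the ring gland, did not exceed 0.149 in any library. GstD11 was listed at 0 in 14 of the 15 anterior libraries and read 1.92, 1.04 and 1.34 in posterior Hr96[1], against 0.219, 0.347 and 0.288 in posterior control.

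**Figure D1:**
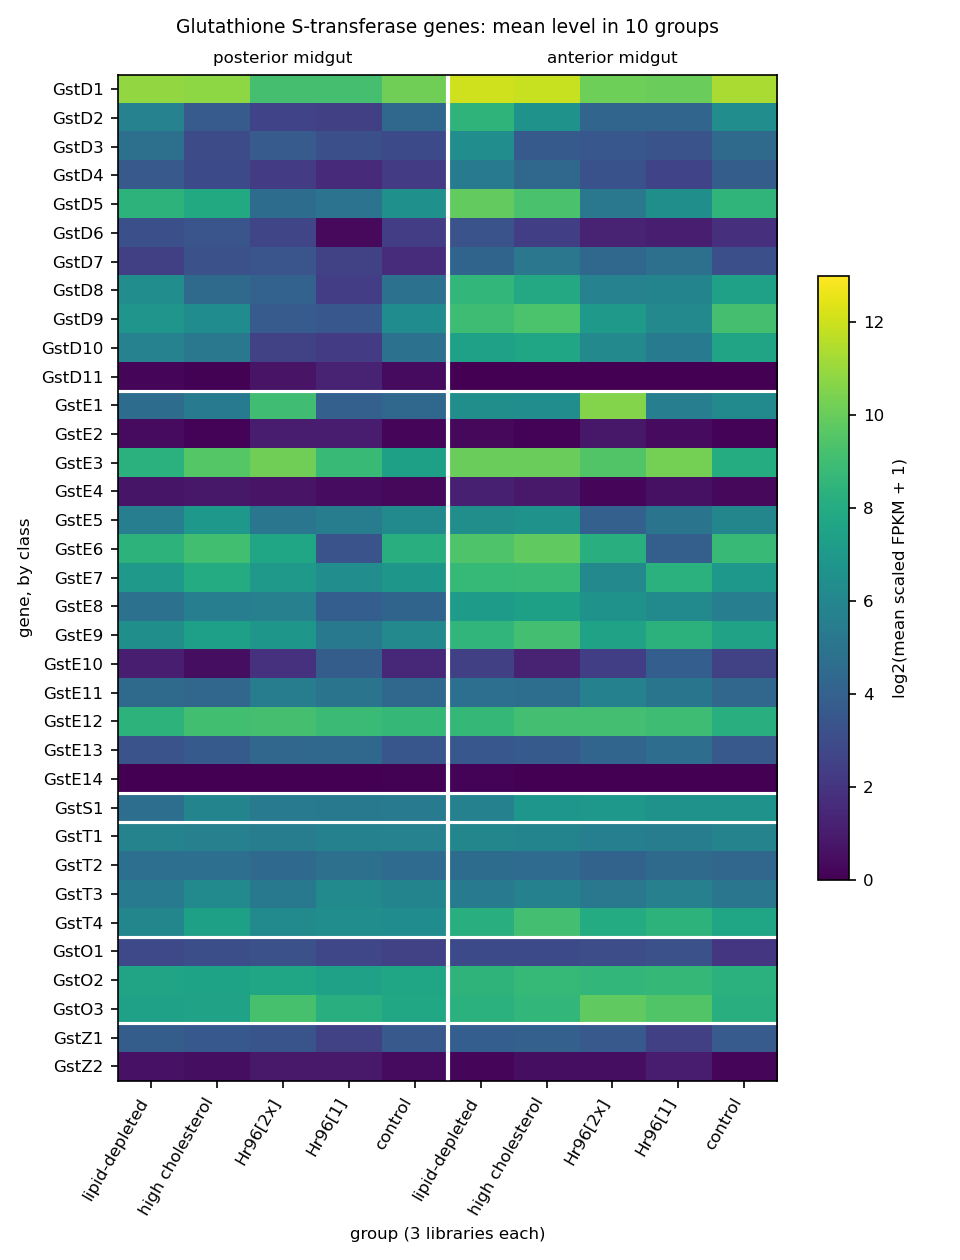
Mean level of the 35 genes (rows, by class, with white lines between classes) in 10 groups of 3 libraries (columns, posterior groups left of anterior groups), on a colour scale of log2(mean scaled FPKM + 1). GstD1 is the brightest row in the wild-type groups, GstE6 is dark in both Hr96[1] columns, and GstE1 is bright in both Hr96[2x] columns.

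As a family the Gst genes made up 0.255% to 0.849% of all FPKM in posterior and 0.458% to 1.43% in anterior libraries. Their balance between classes differed by group. The Delta class held 16.4 ± 6.66% of the summed level of the family in posterior Hr96[2x] and 24.3 ± 3.47% in posterior Hr96[1], against 43.4 ± 2.58% in posterior control. In the anterior midgut the Delta share was 21.2 ± 3.06% in Hr96[2x] and 24.1 ± 7.68% in Hr96[1], against 61.0 ± 2.45% in control (SD, n = 3 each; a description with no test). The Epsilon share was 61.5 ± 4.77% and 46.4 ± 2.07% against 35.5 ± 3.04% in the posterior midgut, and 52.0 ± 7.01% and 46.4 ± 1.96% against 23.2 ± 1.48% in the anterior midgut, in the same order of groups. A share also moves when another class changes. The Epsilon sum in posterior Hr96[1] was 1366, 916 and 1291 scaled FPKM, which overlapped control (1481, 1037 and 1025). In posterior Hr96[2x] it was 2216, 4703 and 1641. Anterior sums were 3003, 3077 and 4477 in Hr96[2x] and 2493, 2562 and 2831 in Hr96[1]. Anterior control had 1615, 1389.7 and 1539.9.

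On the control diet 8 of the 10 tested Delta genes, and GstS1, were lower in the posterior than in the anterior midgut. GstD7 (log2 −1.52, adjusted p = 0.0952) and GstD6 (log2 0.52, adjusted p = 0.729) did not pass. The 11 Delta genes summed to 1593, 1239 and 1462 scaled FPKM in posterior control replicates 1 to 3, against 3976, 3503 and 4500.1 in anterior control. Each posterior library lay below each anterior one. GstD9 stood at 106, 57.6 and 72.7 in posterior control, against 844, 369 and 512 in anterior control (log2 −2.81, SE 0.533, adjusted p = 0.000523). GstD8 stood at 50.8, 14.7 and 16.7 in posterior control, against 263, 99.7 and 151 in anterior control (log2 −2.71, SE 0.485, adjusted p = 0.00028). GstD10 stood at 20.4, 31.6 and 32.2 in posterior control, against 171, 210.0 and 192 in anterior control (log2 −2.75, SE 0.500, adjusted p = 0.000339). These 3 genes were picked among called members whose groups do not overlap, so their separation is not a further result. GstD1 was lower too (log2 −1.13, SE 0.297, adjusted p = 0.01), as were GstD3 (−1.60), GstD4 (−1.44), GstD2 (−2.07) and GstD5 (−1.88).

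Outside the Delta cluster, GstS1, the Sigma enzyme, known for clearing 4-hydroxynonenal made when fats are oxidised, was lower in the posterior midgut in each of the 5 conditions. Control flies had 64.9, 29.0 and 31.5 in the posterior, against 87.4, 109 and 93.1 in the anterior region (log2 −1.28, SE 0.220, adjusted p = 0.000176). The groups did not overlap. Its log2 change was −0.99 on the lipid-depleted diet, −0.93 on high cholesterol, −1.53 in Hr96[2x] and −1.38 in Hr96[1] (adjusted p = 0.00373, 0.00362, 1.44e-05 and 7.56e-05), and each of these 5 calls held without any single library. On FPKM as deposited the calls on the lipid-depleted (0.0751) and high-cholesterol (0.457) diets were lost. GstE1 was the only Epsilon gene called on the control diet, with 18.8, 19.6 and 20.1 in the posterior, against 58.0, 62.9 and 89.7 in the anterior region (log2 −1.77, SE 0.407, adjusted p = 0.0034). GstT4 was also lower (log2 −1.53, adjusted p = 0.0275). GstE12 (log2 0.42, adjusted p = 0.256) and GstT1 (log2 −0.01, adjusted p = 0.997) showed no called difference.

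In all, 11 of the 30 tested members were called between regions on the control diet, all lower in the posterior midgut, with all tested genes at 14.7%, with 6.87% higher and 7.79% lower. The count was 15 on the lipid-depleted diet (all genes, 12.3%, with 5.41% higher and 6.92% lower), 12 on high cholesterol (17.4%, with 8.66% higher and 8.77% lower), 9 in Hr96[2x] (18.9%, with 8.37% higher and 10.6% lower) and 14 in Hr96[1] (14%, with 5.95% higher and 8.06% lower), again all lower but for 1 gene. That gene was GstE5, at 32.6, 45.7 and 23.2 in posterior and 13.3, 11.8 and 19.0 in anterior Hr96[2x] (log2 1.13, SE 0.228, adjusted p = 0.000833). The median log2 change of the 10 tested Delta genes was −1.74 on the control diet, −1.64 on the lipid-depleted and −1.72 on the high-cholesterol diet, −1.32 in Hr96[2x] and −1.69 in Hr96[1], against medians of all genes within 0.01 of 0. Among Epsilon genes that passed in other conditions, GstE9 was at 70.3, 18.6 and 22.5 in posterior and 252, 338 and 372 in anterior Hr96[1] (log2 −3.31, SE 0.503, adjusted p = 4.33e-05) and GstE8 at 29.6, 4.95 and 6.47 in posterior and 112, 50.5 and 55.6 in anterior Hr96[1] (log2 −2.64, SE 0.526, adjusted p = 0.000945). Both held without any single library. GstO2 was lower in the posterior midgut on high cholesterol (log2 −1.17, adjusted p = 0.000854) and in Hr96[1] (log2 −1.20, adjusted p = 0.000837), and GstT4 in Hr96[1] (log2 −2.08, adjusted p = 0.00295) and on the lipid-depleted diet (log2 −2.11, adjusted p = 0.00365).

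The scaling matters for these counts. On FPKM as deposited the median of all genes lay at log2 0.35 to 0.65 in the 5 region comparisons, and the members called were 6 lower and 5 higher on the control diet, 9 and 0 on the lipid-depleted diet, 6 and 7 on high cholesterol, 4 and 9 in Hr96[2x] and 9 and 6 in Hr96[1]. GstD1 kept its direction there but lost its call in each condition (adjusted p = 0.118 on the control diet), and so did GstD2, GstD3, GstD4 and GstD5 on the control diet (0.0578 to 0.0848) and GstO2 on high cholesterol (0.0934) and in Hr96[1] (0.069). Replicate numbers paired the posterior and anterior samples of the lipid-depleted, Hr96[2x] and Hr96[1] groups, and with the number as a block within each condition 16 members were called in Hr96[2x] in place of 9. The count in Hr96[2x] was 5 without anterior replicate 3. The lipid-depleted count was 5 without anterior replicate 1, 9 without posterior replicate 2 and 8 without posterior replicate 3, and the Hr96[1] count 9 without posterior replicate 2. On the control diet the call of GstD4 was lost without anterior replicate 3 (0.061) and that of GstD3 without posterior replicate 1 (0.06). That of GstT4 was lost without anterior replicate 1 or 2 or posterior replicate 2 or 3 (0.0995, 0.0799, 0.102 and 0.174). GstD2 lost it without anterior replicate 2 or 3 or posterior replicate 1 or 2 (0.0546, 0.0746, 0.0539 and 0.0764), and GstD5 kept it only without anterior replicate 1 (up to 0.166). Malpighian tubule markers, a tissue rich in GSTs, summed to 16.6 to 49.4 in posterior and 134 to 158 in anterior control libraries. Irk2 made up most of the anterior sum (149, 147 and 133), while the tubule gene Uro read 0.141, 11.0 and 2.23 in posterior and 3.46, 0 and 0 in anterior control replicates 1 to 3. Visceral muscle markers summed to 379 to 479 in posterior and 241 to 309 in anterior control libraries. The part of these tissues in the region differences was not tested.

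The 2 Hr96 strains were compared with y[1]w[1] on the same diet. In each strain 1 Epsilon gene changed by more than 4 on the log2 scale in both regions. In Hr96[1] GstE6 stood at 14.2, 5.95 and 7.02 scaled FPKM in the posterior midgut, against 364, 242 and 243 in control (log2 −4.88, SE 0.387, adjusted p = 4.55e-09). Anterior GstE6 stood at 18.3, 12.1 and 12.3 in Hr96[1], against 466, 409 and 448 in control (log2 −4.88, SE 0.387, adjusted p = 4.37e-09). The highest of the 6 Hr96[1] libraries lay far below the lowest of the 24 other libraries. In Hr96[2x] GstE1 stood at 454, 667 and 436 in the posterior midgut, against 18.8, 19.6 and 20.1 in control (log2 4.64, SE 0.407, adjusted p = 2.74e-08). Anterior GstE1 stood at 1397, 892 and 2271 in Hr96[2x], against 58.0, 62.9 and 89.7 in control (log2 4.34, SE 0.407, adjusted p = 8.11e-08). All 6 Hr96[2x] libraries lay above the other 24.

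The neighbours of GstE6 in the cluster had smaller changes. In Hr96[1] GstE7, whose start lies just past the end of GstE6, read 203, 19.4 and 25.9 in the posterior midgut, against 136, 109 and 108 in control (log2 −1.29, adjusted p = 0.179), and 592, 174 and 190.5 in the anterior midgut, against 122, 117 and 126 in control (log2 1.14, adjusted p = 0.184). Replicate 1, the highest library of Hr96[1] in tubule and ovary markers, was also the highest for GstE7 in both regions. The part of those tissues in the GstE7 values was not tested. GstE5, on the other side, fell in both regions of Hr96[1], to 40.9, 37.7 and 56.8 in the posterior midgut, against 84.5, 70.2 and 67.3 in control (log2 −0.72, adjusted p = 0.0402), and to 33.5, 30.4 and 30.1 in the anterior midgut, against 55.4, 62.7 and 65.9 in control (log2 −0.95, adjusted p = 0.00478). In Hr96[2x] GstE5 fell in the anterior midgut to 13.3, 11.8 and 19.0 against 55.4, 62.7 and 65.9 in control (log2 −2.01, SE 0.228, adjusted p = 1.53e-06). In the posterior midgut of Hr96[2x] it stood at 32.6, 45.7 and 23.2, against 84.5, 70.2 and 67.3 in control (log2 −1.15, SE 0.228, adjusted p = 0.00148). Of these Epsilon calls, those of GstE6, GstE1 and anterior GstE5 in Hr96[2x] held under each alternative run. That of GstE5 in posterior Hr96[1] was lost without any single library but Hr96[1] replicate 3 (up to 0.144). GstE10, which overlaps GstE1, showed no called change in Hr96[2x] (log2 0.34 in posterior and 0.02 in anterior libraries, adjusted p = 0.87 and 0.996).

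**Figure D2:**
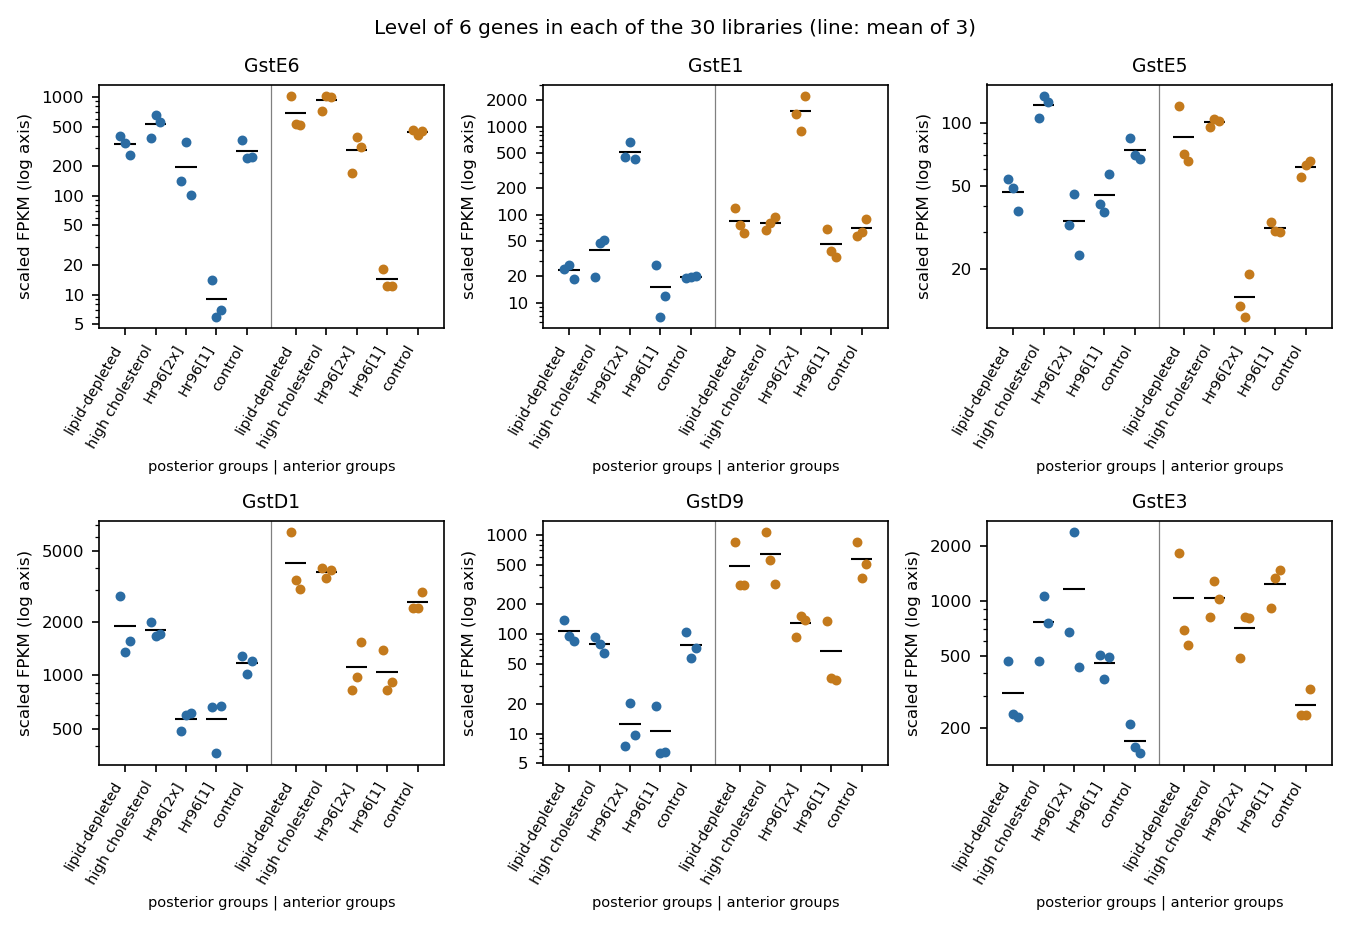
Scaled FPKM (log axis) of 6 genes in each library (points) and the mean of each group of 3 (line), with posterior groups left of anterior groups. GstE6 lies between 5.95 and 18.3 in all Hr96[1] libraries and GstE1 between 436 and 2271 in all Hr96[2x] libraries, while GstD1 and GstD9 are low in both strains.

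GstE3 rose in 3 of the 4 comparisons of a strain with control. In the posterior midgut it stood at 674, 2401 and 435 in Hr96[2x] and 505, 369.8 and 491 in Hr96[1], against 209, 156 and 144 in control, and was called in Hr96[2x] (log2 2.40, SE 0.479, adjusted p = 0.00154) but not in Hr96[1] (log2 1.42, SE 0.479, adjusted p = 0.0528). In the anterior midgut it stood at 487, 821 and 809.7 in Hr96[2x] and 914, 1339.6 and 1492 in Hr96[1], against 236, 236 and 326 in control, and was called in both (log2 1.38, adjusted p = 0.0475 in Hr96[2x]; log2 2.21, adjusted p = 0.00196 in Hr96[1]). No strain library overlapped the control libraries in either region. The anterior Hr96[2x] call was lost without any single library but replicate 1 (up to 0.134), and on FPKM as deposited (0.11). GstE11 rose in Hr96[2x] to 47.8, 33.5 and 46.7 in posterior libraries, against 22.1, 18.8 and 19.9 in control (log2 1.02, adjusted p = 0.0298), and to 61.7, 25.1 and 68.4 in anterior libraries, against 22.3, 17.1 and 16.6 in control (log2 1.31, adjusted p = 0.00412). The posterior GstE11 call needed each of Hr96[2x] replicates 1 and 3 and control replicates 2 and 3 (0.116, 0.0855, 0.0932 and 0.0856 without it), and both GstE11 calls were lost on FPKM as deposited (0.16 posterior and 0.113 anterior). GstE12 rose in the anterior midgut of Hr96[2x] (log2 0.93, adjusted p = 0.00462) and of Hr96[1] (log2 0.76, adjusted p = 0.0154; lost without control replicate 3 or Hr96[1] replicate 2 or 3, 0.0666, 0.0543 and 0.0882). GstE13, which overlaps CG18659, rose in anterior Hr96[1] (log2 0.99, adjusted p = 0.0187). That call did not hold without Hr96[1] replicate 2 or 3 or control replicate 1 (0.107, 0.105 and 0.112), or as deposited (0.0665). On FPKM as deposited neither GstE12 call held (0.0516 in Hr96[2x] and 0.0732 in Hr96[1]).

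Many Delta genes were lower in both strains. Summed over the class, posterior libraries stood at 531, 761 and 689 in Hr96[2x] and 778, 402 and 725 in Hr96[1], against 1593, 1239 and 1462 in control. Anterior libraries stood at 1057, 1355 and 1964 in Hr96[2x] and 1858, 1060.3 and 1166 in Hr96[1], against 3976, 3503 and 4500.1 in control. GstD1, which made up most of each sum, stood at 487, 596 and 616 in posterior Hr96[2x] and 660.2, 364 and 672 in posterior Hr96[1], against 1284, 1021 and 1206 in control (log2 −1.05 and −1.10, adjusted p = 0.0223 and 0.0165). Anterior libraries held GstD1 at 822, 977 and 1540.2 in Hr96[2x] and 1389, 832 and 918 in Hr96[1], against 2374, 2394 and 2930.0 in control (log2 −1.25 and −1.32, adjusted p = 0.00487 and 0.00266). The groups did not overlap in either region, and both anterior calls held without any single library. The posterior GstD1 calls were lost without control replicate 1 or 3 or Hr96[2x] replicate 1 (0.072, 0.0727 and 0.101) in Hr96[2x], and without control replicate 1 or 3 or Hr96[1] replicate 2 (0.062, 0.0507 and 0.099) in Hr96[1].

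GstD9 and GstD10, the neighbours of GstD1 at one end of the cluster, fell in both regions of both strains. GstD9 stood at 7.41, 20.3 and 9.58 in posterior Hr96[2x] and 18.8, 6.30 and 6.55 in posterior Hr96[1], against 106, 57.6 and 72.7 in control (log2 −2.64 and −2.91, adjusted p = 0.00169 and 0.000724). Anterior GstD9 stood at 94.2, 154 and 139 in Hr96[2x] and 135, 36.1 and 34.3 in Hr96[1], against 844, 369 and 512 in control (log2 −2.09 and −3.27, adjusted p = 0.00823 and 0.000131). All 4 GstD9 calls held without any single library. GstD10 stood at 1.64, 9.24 and 3.05 in posterior Hr96[2x] and 8.38, 0.881 and 2.61 in posterior Hr96[1], against 20.4, 31.6 and 32.2 in control (log2 −2.57 and −2.84, adjusted p = 0.00121 and 0.000495). Its anterior log2 change was −1.56 in Hr96[2x] and −2.26 in Hr96[1] (adjusted p = 0.0317 and 0.00235), and the call in Hr96[2x] was lost without any 1 of the 3 control libraries or Hr96[2x] replicate 1 (up to 0.163). Replicates 1 to 3 of GstD5 read 23.7, 45.7 and 39.1 in anterior Hr96[2x] and 127, 66.6 and 67.4 in anterior Hr96[1], against 216, 305 and 563 in control (log2 −3.22 and −1.99, adjusted p = 0.000588 and 0.0188), and in posterior libraries its changes were −2.54 and −1.82 (adjusted p = 0.0063 and 0.0465). The GstD5 call held without any single library in anterior Hr96[2x]. It was lost in posterior Hr96[2x] without Hr96[2x] replicate 1 (0.061), in anterior Hr96[1] without control replicate 3 or Hr96[1] replicate 2 or 3 (0.0967, 0.072 and 0.0752), and in posterior Hr96[1] without any library but Hr96[1] replicate 1 (up to 0.181).

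The remaining Delta genes were mixed. GstD8 fell in posterior Hr96[1], to 6.87, 3.08 and 2.70 against 50.8, 14.7 and 16.7 in control (log2 −2.31, adjusted p = 0.00245), a call that held without any single library. GstD2 and GstD8 were called lower in the anterior midgut of both strains (GstD2 log2 −2.17 and −2.30; GstD8 −1.67 and −1.44, in Hr96[2x] and Hr96[1] in this order), and GstD2 in posterior Hr96[1] (−1.91). Each of these 5 calls was lost without at least 1 library: GstD2 in anterior Hr96[2x] without control replicate 3 or Hr96[2x] replicate 1 (0.0597 and 0.0537), in anterior Hr96[1] without Hr96[1] replicate 3 (0.0519), and in posterior Hr96[1] without any library but Hr96[1] replicate 1 (up to 0.126) or as deposited (0.0754); GstD8 in anterior Hr96[2x] without control replicate 1 or Hr96[2x] replicate 1 or 2 (0.104, 0.092 and 0.0741), and in anterior Hr96[1] without any library but control replicate 2 (up to 0.164). GstD3 and GstD4 were lower in anterior Hr96[1] (log2 −1.14, adjusted p = 0.0462; log2 −1.15, adjusted p = 0.0314), where the GstD3 call was lost without any library but control replicate 1 (up to 0.147) and the GstD4 call without control replicate 2 or 3 or Hr96[1] replicate 2 or 3 (up to 0.137). GstD7 lay above control at 13.6, 25.1 and 20.9 in anterior Hr96[2x] and 37.4, 17.8 and 25.7 in anterior Hr96[1], against 10.9, 6.95 and 6.47 in control, without overlap and without a call (log2 1.19, adjusted p = 0.181 in Hr96[2x]; log2 1.59, adjusted p = 0.0543 in Hr96[1]). GstD6 spread widely in posterior Hr96[2x] (0.442, 15.3 and 0.739) and had no call in any comparison between groups.

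**Figure D3:**
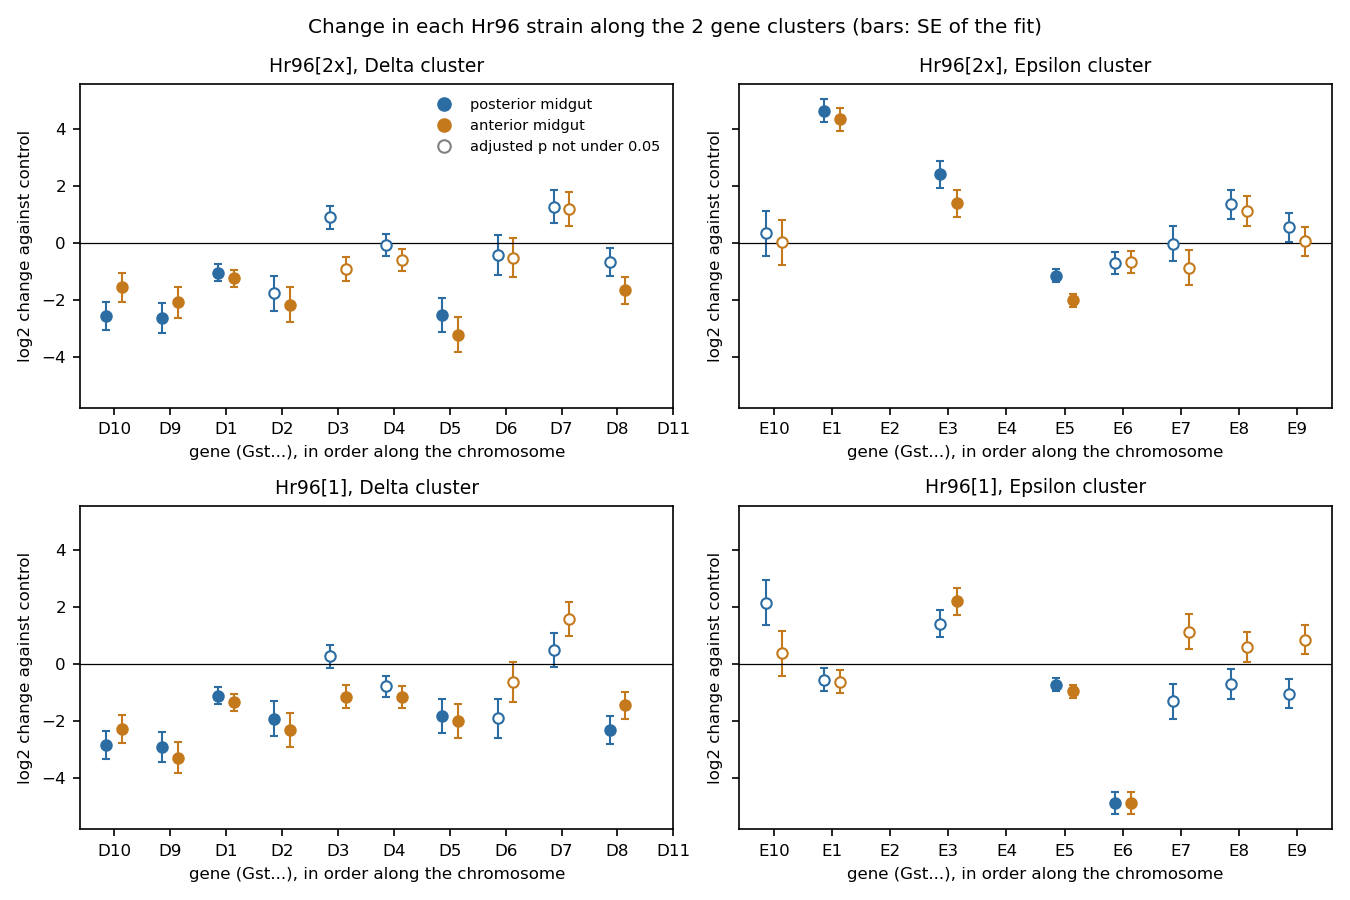
Log2 change of each tested cluster gene against control (points, with the SE of the fit) in the order of the genes along the chromosome, for Hr96[2x] (upper panels) and Hr96[1] (lower panels) in posterior and anterior midgut. Open points have an adjusted p of 0.05 or more, and GstD11, GstE2 and GstE4 were not tested. Most Delta points lie below 0, while in the Epsilon cluster GstE1 is high in Hr96[2x] and GstE6 low in Hr96[1].

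Among the small classes, GstZ1, of the class that holds maleylacetoacetate isomerase of tyrosine breakdown in mammals, was lower in Hr96[1]. It stood at 10.7, 10.2 and 7.05 in posterior Hr96[2x] and 5.47, 4.96 and 3.74 in posterior Hr96[1], against 9.84, 12.7 and 11.4 in control, and the change was called in Hr96[1] (log2 −1.11, SE 0.206, adjusted p = 0.000793) and not in Hr96[2x] (log2 −0.27, adjusted p = 0.492). Anterior GstZ1 stood at 9.99, 10.9 and 12.6 in Hr96[2x] and 4.43, 4.45 and 4.84 in Hr96[1], against 10.7, 13.0 and 13.9 in control (Hr96[1], log2 −1.27, SE 0.206, adjusted p = 0.000125). No Hr96[1] library overlapped the control libraries, and both calls held under each alternative run. The Omega gene GstO3 stood at 684, 1587 and 462 in anterior Hr96[2x] and 481, 791 and 836 in anterior Hr96[1], against 225, 309 and 332 in control (log2 1.48, adjusted p = 0.016 in Hr96[2x]; log2 1.26, adjusted p = 0.0318 in Hr96[1]). GstO1 changed with it (log2 1.02, adjusted p = 0.0195 in Hr96[2x]; log2 1.10, adjusted p = 0.0104 in Hr96[1]). The Hr96[2x] calls were lost without Hr96[2x] replicate 2 or control replicate 1 for GstO3 (0.123 and 0.0693) and without control replicate 1 or 2 or Hr96[2x] replicate 2 for GstO1 (0.0762, 0.0621 and 0.0918). The Hr96[1] calls were lost without any library but Hr96[1] replicate 1 for GstO3 (up to 0.122) and without Hr96[1] replicate 2 or 3 for GstO1 (0.0716 and 0.0647). On FPKM as deposited the anterior calls of GstO3 in Hr96[2x] (0.0533) and Hr96[1] (0.0827) and of GstO1 in Hr96[2x] (0.096) were lost. GstS1, GstO2 and the 4 Theta genes had no call in either strain (GstS1 log2 0.08 in posterior and 0.33 in anterior Hr96[2x], and −0.07 and 0.03 in Hr96[1]).

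In Hr96[2x] 8 of the 30 tested members were called in the posterior midgut (3 higher, 5 lower; all genes, 11.2%, with 4.13% higher and 7.08% lower) and 13 in the anterior midgut (6 higher, 7 lower; all genes, 18.4%, with 8.61% higher and 9.77% lower). In Hr96[1] 9 were called in the posterior midgut, all lower (all genes, 12.9%, with 5.03% higher and 7.89% lower), and 16 in the anterior midgut (5 higher, 11 lower; all genes, 23.9%, with 11.9% higher and 12% lower). All 8 members called in posterior Hr96[2x], and all 9 in posterior Hr96[1], were also called in the anterior midgut of the same strain in the same direction. This overlap was not counted over all genes, so it has no share to be set against. Same-numbered posterior and anterior samples of each strain also deviated together, so the regions are not independent. The Delta median was log2 −0.86 in posterior and −1.41 in anterior Hr96[2x], and −1.86 and −1.38 in Hr96[1], beside Epsilon medians of 0.54, 0.67, −0.54 and 0.71 and medians of all genes within 0.01 of 0. Both strains are set against the same control libraries, so their agreement is not independent. On FPKM as deposited the anterior counts were 1 higher and 10 lower in Hr96[2x] and 2 and 12 in Hr96[1], and the posterior Hr96[1] count 2 and 9. All genes then had a median of log2 −0.40 in anterior Hr96[2x] and −0.28 in anterior Hr96[1]. After quantile normalization the posterior Hr96[1] count was also 2 higher and 9 lower. The anterior Hr96[1] count was 7 without Hr96[1] replicate 3, 8 without Hr96[1] replicate 2 and 10 without control replicate 3, and the posterior count 5 without control replicate 1, control replicate 3 or Hr96[1] replicate 2. In Hr96[2x] the anterior count was 8 without control replicate 1 and the posterior count 5 without Hr96[2x] replicate 1.

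Markers of other tissues and cell types moved with the strains. Malpighian tubule markers summed to 34.9, 41.2 and 7.92 in posterior Hr96[2x] and 375, 65.2 and 85.6 in posterior Hr96[1] replicates 1 to 3, against 16.6, 34.1 and 49.4 in control, so all 3 Hr96[1] libraries lay above control. Of their 6 tested genes Oatp58Db and Aph-4 were called higher in posterior Hr96[1]. Irk2 went the other way in replicates 2 and 3, without a call (28.2, 3.28 and 3.56, against 13.5, 15.0 and 32.1 in control). Anterior tubule sums were 85.9, 25.2 and 42.9 in Hr96[2x] and 388, 59.5 and 71.4 in Hr96[1], against 158, 149 and 134 in control. Irk2 made up most of these sums outside replicate 1 of each strain. It read 27.4, 23.4 and 42.2 in anterior Hr96[2x] and 82.5, 58.0 and 69.9 in anterior Hr96[1], against 149, 147 and 133 in control. Irk2 was called lower in both regions of Hr96[2x]. The tubule gene Uro read 40.3, 0.0765 and 0 in anterior Hr96[2x] and 160, 0 and 0.117 in anterior Hr96[1], against 3.46, 0 and 0 in control. Visceral muscle markers summed to 288 to 935 in Hr96[2x] and 857 to 1033 in Hr96[1], against 379 to 479 in control, in the posterior midgut, and to 169 to 475 in Hr96[2x] and 541 to 635 in Hr96[1], against 241 to 309 in control, in the anterior midgut. Enteroendocrine markers summed to 965 to 1299 in posterior Hr96[2x] and 271 to 319.7 in posterior Hr96[1], against 199.8 to 360.1 in control, with 7 of 9 tested genes called higher in Hr96[2x] and 1 in Hr96[1]. Anterior enteroendocrine sums were 352 to 384 in Hr96[2x] and 207 to 279 in Hr96[1], against 95.9 to 293 in control, with 4 and 2 genes called higher. Copper cell markers summed to 0.273, 0.691 and 0.367 in anterior Hr96[2x] and 58.2, 12.9 and 13.7 in anterior Hr96[1], against 0.201, 0.0810 and 10.1 in control. Their 1 tested gene, Vha100-4, was called higher in anterior Hr96[1] (log2 3.26). In the posterior midgut it was not called in either strain. Fat body markers summed to 25.6, 69.3 and 41.3 in posterior Hr96[2x] and 488, 20.1 and 31.0 in Hr96[1]. Posterior control had 1912, 107 and 163. Anterior fat body sums were 189, 124 and 211 in Hr96[2x] and 626, 182 and 186 in Hr96[1]. Anterior control had 1626, 208 and 169. Of 5 tested, Yp3 was called lower in posterior Hr96[1]. Of 7 tested stem cell and enteroblast genes, esg was called higher in anterior Hr96[1] and klu lower in both regions of Hr96[2x]. The part of these tissues and cell types in the GST changes was not tested.

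The strains were also set against each other, which needs no control library. In the posterior midgut GstE1 (log2 5.18, SE 0.407, adjusted p = 6.87e-09) and GstE6 (log2 4.17, SE 0.387, adjusted p = 9.41e-08) were higher in Hr96[2x] than in Hr96[1], and so were they in anterior libraries (GstE1, log2 4.96, SE 0.407, adjusted p = 1.29e-08; GstE6, log2 4.20, SE 0.387, adjusted p = 7.27e-08). GstZ1 was higher in Hr96[2x] as well (log2 0.85, adjusted p = 0.00887 in posterior; log2 1.12, adjusted p = 0.000807 in anterior), and GstE5 was lower in the anterior midgut (log2 −1.07, adjusted p = 0.00357). GstE6, GstE1 and the anterior GstZ1 and GstE5 calls held without any single library, and the posterior GstZ1 call was lost without Hr96[1] replicate 3 (0.0658) or Hr96[2x] replicate 1 (0.0579). GstD1 stood within its spread (log2 0.05, adjusted p = 0.942 in posterior; log2 0.07, adjusted p = 0.916 in anterior; SE 0.297), and no Delta gene was called in the anterior midgut. In the posterior midgut GstE8 (log2 2.04, adjusted p = 0.013), GstD8 (log2 1.63, adjusted p = 0.0321) and GstE9 (log2 1.57, adjusted p = 0.0472) were higher in Hr96[2x], and GstE7 was lower in the anterior midgut (log2 −2.02, adjusted p = 0.0397). GstE8 lost its call without Hr96[1] replicate 2 or 3 or Hr96[2x] replicate 2 (0.0788, 0.0835 and 0.0913), GstD8 without Hr96[1] replicate 2 or 3 or Hr96[2x] replicate 2 or 3 (up to 0.142), GstE9 without Hr96[1] replicate 2 or 3 or Hr96[2x] replicate 1 or 2 (up to 0.269), and GstE7 without Hr96[1] replicate 1 or 3 or Hr96[2x] replicate 1 or 2 (up to 0.16). In all, 6 members were called in the posterior midgut, each higher in Hr96[2x] (all genes, 10.7%, with 5.29% higher and 5.45% lower), and 5 in the anterior midgut, 3 higher and 2 lower (all genes, 9.59%, with 4.21% higher and 5.37% lower). The posterior count was 3 without Hr96[1] replicate 2, 2 without Hr96[1] replicate 3 and 3 without Hr96[2x] replicate 2, and both the deposited FPKM and quantile normalization gave 6 higher and 1 lower.

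On the lipid-depleted diet the Delta gene GstD3 rose in both regions and GstS1 fell in the anterior midgut. The Delta class summed to 3818, 1886 and 2044 in posterior lipid-depleted replicates 1 to 3, against 1593, 1239 and 1462 in posterior control, and to 10404, 5199 and 4664 in anterior lipid-depleted libraries, against 3976, 3503 and 4500.1 in anterior control. Replicate 1 was the highest in both regions, and the other lipid-depleted libraries also lay above every control library. GstD3 rose to 42.3, 17.4 and 19.4 in posterior lipid-depleted libraries, against 3.55, 8.21 and 7.96 in control (log2 1.81, SE 0.410, adjusted p = 0.0111), and to 150.2, 49.2 and 48.8 in anterior ones, against 13.7, 25.5 and 25.9 in control (log2 1.72, SE 0.410, adjusted p = 0.0196). GstD8 rose in the posterior midgut, with 68.7, 88.4 and 85.1 on the diet and 50.8, 14.7 and 16.7 in control (log2 1.74, adjusted p = 0.0439), and GstD4 in the anterior midgut, with 65.4, 24.2 and 25.3 on the diet and 8.09, 14.2 and 16.8 in control (log2 1.39, adjusted p = 0.0468). GstE3 rose in the anterior midgut to 1831, 695 and 572, against 236, 236 and 326 in control (log2 1.77, adjusted p = 0.0437). GstS1 fell in the anterior midgut to 59.4, 48.3 and 44.7, against 87.4, 109 and 93.1 in control (log2 −0.92, SE 0.220, adjusted p = 0.0204). In the posterior midgut it stood at 24.2, 22.7 and 28.2, against 64.9, 29.0 and 31.5 in control, without overlap and without a call (log2 −0.63, adjusted p = 0.133). GstD1 was not called (log2 0.63, adjusted p = 0.313 in posterior; log2 0.67, adjusted p = 0.294 in anterior).

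Of the 30 tested members 2 were called in the posterior midgut, both higher (all genes, 3.83%, with 1.39% higher and 2.44% lower), and 4 in the anterior midgut, 3 higher and 1 lower (all genes, 3.17%, with 1.66% higher and 1.51% lower). The anterior split was 4 higher and 0 lower on FPKM as deposited. None of these 6 calls held without every single library. GstD3 was lost without replicate 1 of the diet or of control in both regions (0.0698 and 0.0998 posterior; 0.126 and 0.111 anterior). GstS1 was lost if lipid-depleted replicate 2 or 3 or control replicate 2 was left out (0.079, 0.103 and 0.123), and on FPKM as deposited (0.09). GstD8 was lost without any library but control replicate 1 (up to 0.22), GstE3 without any but lipid-depleted replicate 3 (up to 0.22), and GstD4 without replicate 1 of the diet or of control, control replicate 2 or lipid-depleted replicate 3 (up to 0.241) or as deposited (0.0517). The anterior count was 1 without control replicate 1, control replicate 2 or lipid-depleted replicate 1, and 2 without lipid-depleted replicate 2 or 3. The posterior count was 0 without lipid-depleted replicate 1 and 1 without any other of the 6 libraries. Visceral muscle markers summed to 188 to 369 in posterior and 122 to 149 in anterior lipid-depleted libraries. Control had 379 to 479 and 241 to 309, and none of 9 tested muscle genes was called. Of 9 tested enteroendocrine genes CCHa1 and AstA were called higher in the anterior midgut. Anterior Malpighian tubule markers summed to 220, 162 and 159, against 158, 149 and 134 in control, without a call. Among them Uro read 0.122, 22.5 and 24.0, against 3.46, 0 and 0 in control. The part of these tissues and cell types was not tested.

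**Figure D4:**
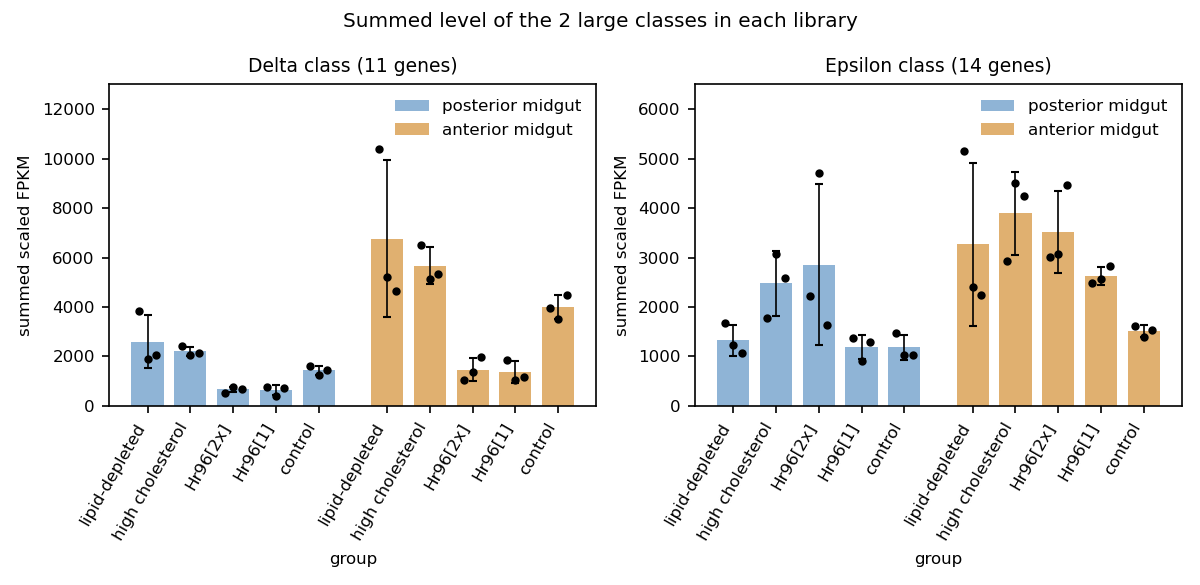
Summed scaled FPKM of the 11 Delta genes and the 14 Epsilon genes in each library (points), with the mean (bar) and SD (line) of each group of 3, posterior groups left of anterior groups. Both Hr96 strains have low Delta sums in both regions, and replicate 1 is the highest lipid-depleted library in each panel and region.

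On the high-cholesterol diet GstE3 rose in both regions. It stood at 465, 1065 and 759.7 in posterior high-cholesterol libraries, against 209, 156 and 144 in control (log2 2.10, SE 0.479, adjusted p = 0.0292), and at 814, 1296 and 1024 in anterior ones, against 236, 236 and 326 in control (log2 1.96, SE 0.479, adjusted p = 0.0231). The groups did not overlap. The 14 Epsilon genes summed to 1768, 3070.0 and 2591 in posterior high-cholesterol libraries, against 1481, 1037 and 1025 in control, and to 2932, 4501 and 4246 in anterior ones, against 1615, 1389.7 and 1539.9 in control, again without overlap. GstE12 rose in the anterior midgut to 418, 595 and 667, against 330.2, 294 and 260.5 in control (log2 0.90, adjusted p = 0.0228). GstE6 (log2 0.89, adjusted p = 0.427 in posterior; log2 1.04, adjusted p = 0.151 in anterior), GstE7 (log2 1.06, adjusted p = 0.678; log2 1.80, adjusted p = 0.112) and GstD1 (log2 0.61, adjusted p = 0.507; log2 0.57, adjusted p = 0.352) lay above control in every library and were not called. GstS1 stood at 53.4, 65.0 and 55.5 in posterior and 104, 110.3 and 119 in anterior high-cholesterol libraries (log2 0.55, adjusted p = 0.351; log2 0.20, adjusted p = 0.72).

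Of the 30 tested members 1 was called in the posterior midgut, higher (all genes, 0.876%, with 0.552% higher and 0.324% lower), and 2 in the anterior midgut, both higher (all genes, 3.52%, with 2.24% higher and 1.27% lower). On FPKM as deposited the anterior count was 1 higher and 1 lower, all genes had a median of log2 −0.47, and GstE12 was not called (0.111). GstE3 was lost in the posterior midgut without replicate 2 or 3 of control or of the diet (up to 0.226) and in the anterior midgut without any library but high-cholesterol replicate 1 (up to 0.13), and GstE12 without replicate 2 or 3 of control or of the diet (up to 0.191). Leaving out anterior high-cholesterol replicate 1 gave 8 calls in the anterior midgut, and leaving out posterior control replicate 1 gave 2 in the posterior midgut. The anterior count was 0 without replicate 2 or 3 of control or of the diet, and so was the posterior count. Both diets and both strains are set against the same 3 control libraries in each region.

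Whether a response differed between regions was tested as the posterior response minus the anterior one. Limma called 0 members in each of the 4 conditions. Of all genes it called 0.576%, with 0.144% higher and 0.432% lower, for the lipid-depleted diet. The share was 0.024%, with 0.012% higher and 0.012% lower, for high cholesterol, 0.36%, with 0.096% higher and 0.264% lower, for Hr96[2x], and 0.408%, with 0.12% higher and 0.288% lower, for Hr96[1]. The unadjusted p was under 0.05 for 2, 0, 2 and 4 members in that order. The smallest was that of GstE5 on the lipid-depleted diet (log2 −1.09, SE 0.323, adjusted p = 0.222), with 54.0, 48.7 and 38.0 in posterior lipid-depleted libraries, against 84.5, 70.2 and 67.3 in control, and 121, 71.4 and 65.7 in anterior ones, against 55.4, 62.7 and 65.9 in control. GstE7 in Hr96[1] (log2 −2.43, SE 0.872, adjusted p = 0.341) had a call (log2 −3.47, adjusted p = 0.0142) without posterior Hr96[1] replicate 1. With the replicate number as a block within each condition, which pairs the regions of both strains, GstD3 was called in Hr96[2x] (log2 1.82, adjusted p = 0.0263), and GstE7 (log2 −2.43, adjusted p = 0.0201), GstO1 (log2 −0.90, adjusted p = 0.0342) and GstO3 (log2 −0.91, adjusted p = 0.0451) in Hr96[1].

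The wider glutathione system showed its own changes. Lists of related genes were read beside the family, and their single genes were not rerun without single libraries. Of 10 tested ABC transporters of class C, 3 fell in posterior Hr96[2x] and 4 in posterior Hr96[1], where 7.08% and 7.89% of all genes fell. In the anterior midgut 5 fell and 1 rose in Hr96[2x], where 9.77% of all genes fell and 8.61% rose, and 7 fell and 1 rose in Hr96[1], where 12% fell and 11.9% rose. CG10505 was called lower in each of the 8 comparisons with control. In the posterior midgut it averaged 8.10 ± 1.78 on the lipid-depleted and 8.85 ± 1.93 on the high-cholesterol diet, 8.79 ± 2.67 in Hr96[2x] and 10.6 ± 3.27 in Hr96[1], against 33.0 ± 7.15 in control (SD, n = 3 each; log2 −1.90, −1.79, −1.82 and −1.57). In the anterior midgut it averaged 77.3 ± 14.7, 77.0 ± 19.1, 32.1 ± 7.34 and 34.5 ± 7.72 in the same order, against 382 ± 239.7 in control (log2 −2.09, −2.11, −3.34 and −3.24), where the control libraries spread widely. These 8 changes share the control libraries of their region. MRP, the fly relative of human multidrug resistance proteins, fell in Hr96[2x] (log2 −1.33, adjusted p = 0.000775 in posterior; log2 −1.83, adjusted p = 1.49e-05 in anterior) and was lower there than in Hr96[1] (log2 −0.83, adjusted p = 0.0328; log2 −1.11, adjusted p = 0.00458). It was also called lower than control in anterior Hr96[1], but not in posterior Hr96[1].

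Of 4 tested genes of glutathione synthesis and turnover, Gclc and Gclm encode the catalytic and the modifier subunit of glutamate-cysteine ligase, the first step of glutathione synthesis. Gclc averaged 37.4 ± 12.2 in posterior and 121 ± 36.2 in anterior control (log2 −1.67, adjusted p = 0.000148), and was called lower in the posterior midgut in the other 4 conditions too. Gclm was called lower in the posterior midgut in those 4 conditions (log2 −1.08 on the lipid-depleted and −1.30 on the high-cholesterol diet, −1.18 in Hr96[2x] and −1.66 in Hr96[1]). Neither was called in a condition against control. Ggt-1, a gamma-glutamyl transpeptidase gene, averaged 11.7 ± 1.40 on the lipid-depleted diet, against 95.4 ± 26.8 in control, in the posterior midgut (log2 −2.89, adjusted p = 0.00345), and this response differed between regions (log2 −4.90, adjusted p = 0.00293). Ggt-1 rose in anterior Hr96[2x] to 59.0 ± 56.2 and in anterior Hr96[1] to 20.5 ± 3.83, against 4.01 ± 3.14 in control (log2 3.42 and 2.34, adjusted p = 0.000184 and 0.00493). CG4829, a gene of the same list, rose in both regions of Hr96[1] (log2 0.94, adjusted p = 0.00349 in posterior; log2 0.61, adjusted p = 0.0338 in anterior). Of 12 tested peroxidases and other antioxidant enzymes, 3 rose and 1 fell in anterior Hr96[2x] (all genes, 8.61% and 9.77%), and 6 rose and 0 fell in anterior Hr96[1] (all genes, 11.9% and 12%; Jafrac2, log2 1.06, adjusted p = 0.000229; Sod3, log2 2.08, adjusted p = 0.00172). Sod3 fell on the lipid-depleted diet (log2 −1.66, adjusted p = 0.0342 in posterior; log2 −1.62, adjusted p = 0.0464 in anterior). The peroxiredoxin Prx2540-2 fell in Hr96[2x] (log2 −3.59, adjusted p = 0.000678 in posterior; log2 −3.46, adjusted p = 0.000757 in anterior) while its close copy Prx2540-1 rose in posterior Hr96[2x] (log2 2.41, adjusted p = 3.78e-06), and reads shared between the copies make both values uncertain. The thioredoxin gene Trx-2 fell in Hr96[2x] (log2 −1.21, adjusted p = 0.00157 in posterior; log2 −1.15, adjusted p = 0.00184 in anterior). Among the regulators, maf-S rose in anterior Hr96[1] (log2 1.21, adjusted p = 0.00549) and Keap1 in anterior Hr96[2x] (log2 1.22, adjusted p = 0.0284), and cnc, the fly Nrf2-type factor, was called against control in no condition. Between the strains, cnc was called higher in Hr96[2x] than in Hr96[1] in the posterior midgut, and not in the anterior midgut.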

How the data were processed

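Unstranded libraries of poly(A) RNA were made from 30 samples, per the labels' protocols. The submitters' processing notes name bcl2fastq 2.17.1.14, TopHat2 2.1.1, Bowtie2 2.2.9 and Cufflinks 2.2.1 and the build dm6. Each deposited table gives FPKM per gene, its confidence interval and whether the estimate succeeded, per the file headers. FPKM is a share of each library, so very abundant genes lower all others.

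Genes with a failed estimate in any library (103, no member) were left out. Libraries were scaled by median-of-ratios factors from the 8584 genes above 0 throughout (1.03 to 1.45 in posterior and 0.537 to 1.20 in anterior libraries). Limma 3.58.1 (R 4.3.3) fitted 10 group means to log2(scaled FPKM + 1) with a variance trend and 20 residual degrees of freedom, after checks on simulated data; tests were 2-sided. Python 3.11.15, pandas 2.3.3 and matplotlib 3.10.9 were also used. Same-numbered posterior and anterior samples deviated together (every correlation over 0.1) in the lipid-depleted (0.200 to 0.388), Hr96[2x] (0.205 to 0.271) and Hr96[1] (0.297 to 0.521) groups, and so did anterior Hr96[2x] and Hr96[1] (0.144 to 0.318), where the labels give only a number. Members and gene lists were chosen with earlier results of these data known. Values per library are given for up to 6 called members per comparison with the largest change and no overlap, GstD1, GstS1 and the most abundant of each class; others, and pathway genes past the 3 with the smallest adjusted p, were chosen after their values were seen. Alternatives were other scalings, pseudocounts and filters, fits of the compared groups alone, blocks, averaged replicates and left-out libraries.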

Additional observations from a re-analysis of the deposited data

Results flagged for a closer look

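GstE5 and GstD3 stood out because all libraries of one group moved one way and all libraries of another moved the opposite way under the same contrast. For GstE5 the log2 difference of posterior over anterior midgut was 1.13 in Hr96[2x], 0.49 in Hr96[1], 0.27 on high cholesterol and 0.26 on the control diet, and −0.82 on the lipid-depleted diet, with no overlap of regions in any of the 5. The difference of the lipid-depleted value from the control value was tested and not called (log2 −1.09, SE 0.323, adjusted p = 0.222), and so was that of the Hr96[2x] value (log2 0.86, SE 0.323, adjusted p = 0.529); the differences among the 4 conditions other than control were not tested. The lipid-depleted region difference lost its call without posterior replicate 3 (adjusted p = 0.103) or anterior replicate 1 (0.155), on FPKM as deposited (log2 −0.42, 0.198) and in the compared groups alone (0.121).

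GstD3 in Hr96[2x] stood above control in every posterior library (log2 0.89; 12.0, 12.3 and 12.9 against 3.55, 8.21 and 7.96) and below it in every anterior one (log2 −0.92; 8.97, 10.7 and 12.3 against 13.7, 25.5 and 25.9). The difference between regions was tested and not called (log2 1.82, SE 0.579, adjusted p = 0.309), but gave adjusted p = 0.0263 with the replicate number as a block within each condition.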

How the results depend on the processing

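Of the 127 calls of members over all comparisons, 61 stayed called whichever single library was left out, and none reversed under any alternative. FPKM as deposited kept 88, quantile normalization 118, a pseudocount of 0.1 kept 123, a pseudocount of 5 kept 121, no filter on low values 106, a minimum mean of 5 kept 127, the compared groups alone 71, and averaging replicates 2 and 3 kept 47. The last of these has 2 values per group and the fit of compared groups alone fewer samples to estimate the spread. Leaving out both control libraries numbered 1, chosen after seeing the data, kept 46 of the 66 calls made against control. Depth is unknown, so how far it limits weak genes such as GstO1 and GstD6 cannot be given.

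In counts of members, on the control diet the region difference stood at 11, and at 4 with averaged replicates; on the lipid-depleted diet at 15, and at 9 as deposited and 2 averaged; on high cholesterol at 12, and at 5 averaged; in Hr96[2x] at 9, and at 4 in the compared groups alone and 4 averaged; and in Hr96[1] at 14, and at 7 alone and 6 averaged. The posterior lipid-depleted count of 2 became 5 after quantile normalization, 1 with a pseudocount of 0.1, 1 with no filter and 0 both alone and averaged, and the anterior count of 4 became 2 with no filter and 0 both alone and averaged. The posterior high-cholesterol count of 1 became 0 with no filter, alone or averaged, and the anterior count of 2 became 4 with a pseudocount of 5 and 0 alone or averaged. Averaging gave 5 in anterior Hr96[2x], 3 in posterior Hr96[1] and 6 in anterior Hr96[1], and posterior Hr96[1] had 5 in the compared groups alone. Hr96[2x] against Hr96[1] had 2 alone and 3 averaged in the posterior midgut, and 3 alone in the anterior midgut. Without both control libraries numbered 1 the counts were 1 and 1 on the lipid-depleted diet (posterior, anterior), 2 in posterior high cholesterol, 8 in anterior Hr96[2x] and 5 in posterior Hr96[1]. With no filter 1 member, GstD11, had a response that differed between regions in Hr96[1] (adjusted p = 0.00643). The cause of these moves was not tested.

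With single libraries left out, the region counts ran from 8 to 10 on the control diet, 5 to 16 on the lipid-depleted diet, 8 to 13 on high cholesterol, 5 to 13 in Hr96[2x] and 9 to 14 in Hr96[1]. Posterior and anterior counts ran from 0 to 1 and 1 to 3 on the lipid-depleted diet, 0 to 2 and 0 to 8 on high cholesterol, 5 to 9 and 8 to 12 in Hr96[2x], 5 to 12 and 7 to 14 in Hr96[1], and 2 to 7 and 4 to 5 for Hr96[2x] against Hr96[1]; the Hr96[1] response that differed between regions ran from 0 to 1.

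With the replicate number as a block over all samples the counts between regions were 11, 15, 12, 10 and 14 (control, lipid-depleted, high-cholesterol, Hr96[2x] and Hr96[1]). A replicate block within each condition gave 18 on the control diet and 16 in Hr96[2x]. On the control diet 2 of the 3 same-numbered pairs had a correlation over 0.1 (0.0376 to 0.307 over the 3). That block called a response that differed between regions for 1 member in Hr96[2x] (GstD3) and 3 in Hr96[1]. These 3 were GstE7 (log2 −2.43, adjusted p = 0.0201), GstO3 (log2 −0.91, adjusted p = 0.0451) and GstO1 (log2 −0.90, adjusted p = 0.0342). The pairing changed no other count by more than 1.5 times.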
